A study of Mus musculus with 11 samples.

Results

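The genes compared here were the 3 subunits of succinyl-CoA ligase (*Suclg2*, *Suclg1* and *Sucla2*) and 6 other enzymes of the tricarboxylic acid (TCA) cycle (*Cs*, *Idh3a*, *Ogdh*, *Dlst*, *Fh1* and *Mdh2*). They were taken by symbol from a table of 13669 genes, in which all 9 were found, and all 9 passed the filter on low counts that left 13334 genes to test. The set was chosen by the difference of *Suclg2* between the groups of livers, which had the smallest p value of the series, and the other 8 genes were added as its partners or neighbours in the cycle. Its difference between the groups, and the differences of the others in the same contrast, are therefore given as a description and without a test.

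RNA was sequenced from the livers of 11 male C57BL/6J mice of WT genotype on regular chow. All had received a recombinant adeno-associated virus of serotype 8 with a liver-specific LP1 promoter through the tail vein. In 6 of them it expressed the TuD, a decoy RNA hairpin with a binding site for *miR-379* and one for *miR-541* (AAV-TuD), and in 5 a negative control sequence (NC, AAV-NC). The methods describe young mice that were acclimated before use and, for TuD studies in general, killed after a fast of some hours, weeks to months after the virus, but not the age and time of these animals. Each animal gave 1 library, and livers are named below by group and replicate number. The comparison asks which transcripts of the liver differ between mice with the decoy and mice with the control sequence. The libraries read the 3′ end of polyadenylated RNA, so the miRNAs themselves were not measured.

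The TCA cycle oxidises acetyl groups in the mitochondrial matrix and passes the electrons to the respiratory chain. Citrate synthase opens it, isocitrate dehydrogenase and the oxoglutarate dehydrogenase complex release carbon dioxide and form succinyl-CoA, and succinyl-CoA ligase turns this into succinate while it makes a nucleoside triphosphate. The ligase pairs 1 common α subunit (*Suclg1*) with either of a pair of β subunits: that of *Suclg2* makes GTP and is the main form in anabolic tissues such as liver, and that of *Sucla2* makes ATP and is the main form in brain and heart. Fumarase and malate dehydrogenase then regenerate oxaloacetate, which in liver also feeds gluconeogenesis.

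The miRNA arms below are shown because the decoy was built against *miR-379* and *miR-541* and because a seed match to each of the first and the third lies in the 3′ UTR of *Suclg2*. The study also measured *miR-134*, *miR-382* and *miR-409* of the same cluster. It reported them lowered in liver by the TuD, along with the long transcripts that host the cluster. Capitals mark the seed (bases 2 to 8), and no seed is shared. The sequences are those of RefSeq on GRCm38.p6, and all 3 lie on the plus strand of chromosome 12 (chr12:109709065-109709085, chr12:109742422-109742446 and chr12:109734145-109734166).
mmu-miR-379-5p: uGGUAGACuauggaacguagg
mmu-miR-541-5p: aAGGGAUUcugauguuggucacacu
mmu-miR-134-5p: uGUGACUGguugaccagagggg

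The longest annotated 3′ UTR of each of the 9 genes was searched on the sense strand for the 7 letters complementary to each seed, for both arms of all miRNAs named except *miR-379* and *miR-541*, for which the 5p arm was used. The letters searched were GTCTACC for miR-379-5p, AATCCCT for miR-541-5p, CAGTCAC for miR-134-5p, GCCCACA for miR-134-3p, ACAACTT for miR-382-5p, GTGAATG for miR-382-3p, GGTAACC for miR-409-5p and CAACATT for miR-409-3p. *Suclg2* was the only one of the 9 with a match to miR-379-5p, at base 233 of a 3′ UTR of 2040 bases, and 5.20% of the 3′ UTRs of 10928 genes held one. It also held a match to miR-134-5p at base 1136, as did *Cs* at base 344, *Idh3a* at base 861 and *Ogdh* at base 702, a motif in 12.4% of all 3′ UTRs. *Idh3a* had a further match to miR-134-3p and *Cs* one to miR-409-3p. No match to miR-541-5p or to either arm of *miR-382* was found in any of the 9. The 3′ UTRs of *Mdh2* (183 bases) and *Suclg1* (203 bases) were short beside the median of all genes (1214.5 bases), so fewer matches can fall in them. That of *Suclg2* was the longest of the 9, with 30.5% of all 3′ UTRs longer, so more matches can fall in it. The shares over all genes were not adjusted for length. The matches are shown with 10 bases on each side and the matched letters in capitals, and they are descriptions of sequence, not of binding.
*Suclg2*, miR-379-5p match: cagtagcaggGTCTACCagctctgggc
*Suclg2*, miR-134-5p match: tggtgtggtgCAGTCACgcactgtgcc
*Cs*, miR-134-5p match: agacaagctgCAGTCACtcatggagct
*Idh3a*, miR-134-5p match: ctaaagcaacCAGTCACtgccttctgc
*Ogdh*, miR-134-5p match: gacccctcccCAGTCACttcattttct

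*Suclg2* (ENSMUSG00000061838, minus strand, GRCm38 chr6:95473009-95718800) encodes the GTP-forming β subunit. Its levels in the AAV-NC livers 1, 2, 6, 7 and 8 were 52.2, 44.9, 39.3, 32.5 and 47.1 CPM (reads relative to the library total, on the CPM scale with TMM factors). In the AAV-TuD livers 3, 4, 5, 9, 10 and 11 they were 122, 129.9, 130.1, 136, 125 and 132 CPM. The groups did not overlap, and every AAV-TuD liver was above 2 times the level of every AAV-NC liver. The mean level was 43.2 ± 7.54 CPM (SD, n = 5) in the controls and 129 ± 5.03 CPM (SD, n = 6) with the decoy, a ratio of 2.99 and a log2 fold change of 1.58 ± 0.10 (SE). By size of rise, 141 of the 13334 genes lay above it. The values rest on 260 to 1681 reads per liver.

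The AAV-TuD livers were also close to each other in *Suclg2*. The coefficient of variation of its level was 3.90% among them, and counting of reads alone would give 2.65%. Among the AAV-NC livers it was 17.4%, with 5.23% from counting. The lowest AAV-NC liver, number 7, was also the liver with the largest share of reads from the major urinary protein (*Mup*) genes, and the part of this in its *Suclg2* level was not tested. Without the 3 livers with most *Mup* reads the log2 fold change of *Suclg2* was 1.51.

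**Figure D1:**
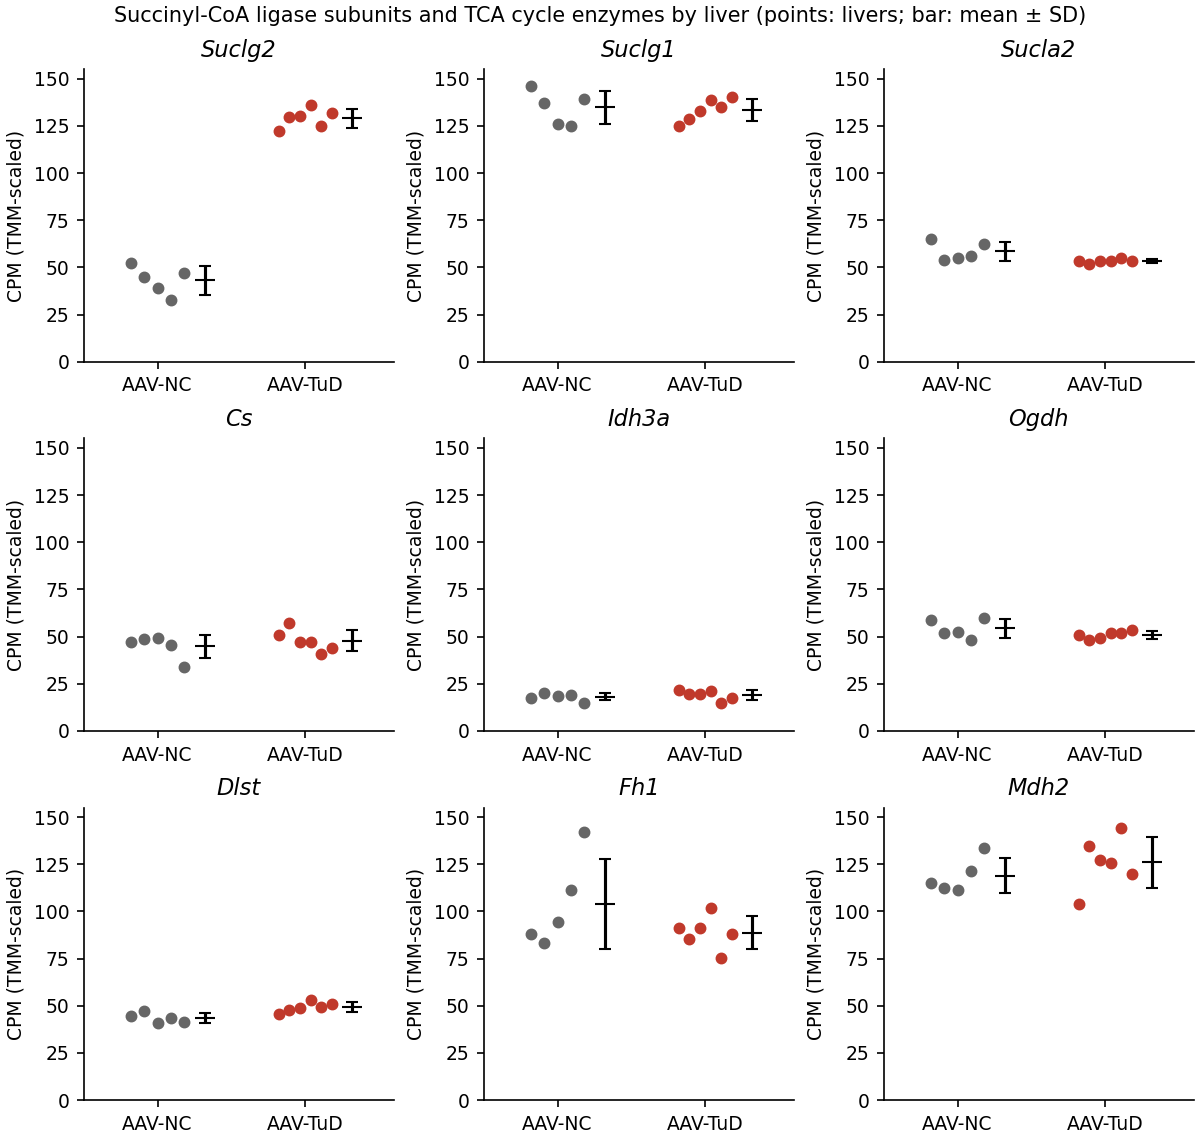
Level of each of the 9 genes in CPM (TMM-scaled, linear axis from 0) in each of the 5 AAV-NC (grey) and 6 AAV-TuD (red) livers, with the mean and SD as black bars. *Suclg2* lies between 32.5 and 52.2 CPM with AAV-NC and between 122 and 136 CPM with AAV-TuD, and the groups of the other 8 genes overlap.

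*Suclg1* (ENSMUSG00000052738, chr6:73248382-73276911) encodes the α subunit that both forms of the ligase share. Its levels were 146, 137, 126, 125 and 139 CPM in the AAV-NC livers and between 125 and 140.4 CPM in the AAV-TuD livers, with a median of 134 CPM. The AAV-TuD livers lay within the range of the AAV-NC livers but for 1 at its lower end, and the log2 fold change was -0.01 ± 0.06 (SE). *Sucla2* (ENSMUSG00000022110, chr14:73525319-73596142) encodes the ATP-forming β subunit. Its levels were 65.3, 53.9, 55.1, 56.2 and 62.6 CPM in the AAV-NC livers and between 51.9 and 55.1 CPM in the AAV-TuD livers, with a median of 53.4 CPM. The groups overlapped, with all AAV-TuD livers below the median of the AAV-NC livers, and the log2 fold change was -0.13 ± 0.07 (SE).

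Reads of the 3 subunits were next set against each other within each liver, which does not depend on the scaling between libraries. *Suclg2* made up 44.4, 45.5, 41.6, 36.7 and 42.9% of the reads of both β subunits in the AAV-NC livers. In the AAV-TuD livers the share was 69.6, 71.4, 70.9, 71.9, 69.4 and 71.2%. *Sucla2* thus gave the larger part of the β subunit reads in every AAV-NC liver and *Suclg2* in every AAV-TuD liver. The shares leave out reads counted to *Gm15163*, a near-identical copy of *Suclg2* described below. In AAV-NC liver 2, *Suclg2* had 357 reads, *Gm15163* 66 and *Sucla2* 428, so with the copy included the β subunits would be nearly level there. The mean share was 42.2 ± 3.43% (SD, n = 5) and 70.7 ± 1.03% (SD, n = 6). The 95% Wilson interval, which covers counting error only, was 33.2 to 40.3% in AAV-NC liver 7 and 67.3 to 71.3% in AAV-TuD liver 10, the lowest of each group.

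The reads of *Suclg2* per read of *Suclg1* were 0.319 ± 0.0369 (SD, n = 5) in the controls and 0.968 ± 0.0316 (SD, n = 6) with the decoy. The reads of both β subunits together per read of the α subunit were 0.754 ± 0.0412 and 1.37 ± 0.0385. Since 3′ libraries give about 1 read position per transcript, these ratios were not divided by transcript length. They contain the *Suclg2* reads by which the gene was chosen and are a description of the same difference on another scale.

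**Figure D2:**
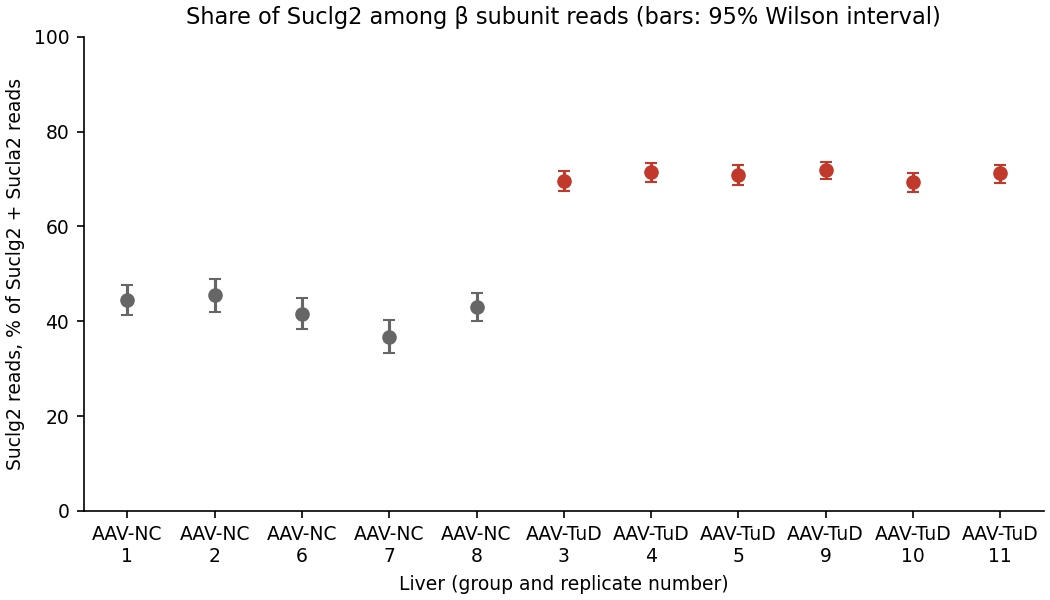
Share of *Suclg2* among the reads of the β subunits *Suclg2* and *Sucla2* (percent, axis from 0 to 100) in each AAV-NC (grey) and AAV-TuD (red) liver, with 95% Wilson intervals of the counts. The share is 36.7 to 45.5% with AAV-NC and 69.4 to 71.9% with AAV-TuD.

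The enzymes ahead of the ligase in the cycle had overlapping groups. *Cs* (ENSMUSG00000005683, chr10:128337734-128362479), citrate synthase, was at 47.0, 48.7, 49.1, 45.3 and 34.2 CPM in the AAV-NC livers and between 41.0 and 57.2 CPM in the AAV-TuD livers (median 47.1 CPM). AAV-NC liver 8 lay apart below the rest of its group, and the log2 fold change was 0.10 ± 0.10 (SE). *Idh3a* (ENSMUSG00000032279, chr9:54586334-54604661), the catalytic subunit of the NAD-dependent isocitrate dehydrogenase, was at 17.7, 20.1, 18.7, 19.3 and 15.0 CPM and between 15.0 and 21.6 CPM (median 19.5 CPM). It was the least abundant of the 9 in both groups, on 148 to 264 reads per liver, and its log2 fold change was 0.08 ± 0.11 (SE).

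*Ogdh* (ENSMUSG00000020456, chr11:6291633-6356642) and *Dlst* (ENSMUSG00000004789, chr12:85110833-85134845) encode the E1 and E2 components of the oxoglutarate dehydrogenase complex, which supplies the ligase with succinyl-CoA. *Ogdh* was at 58.8, 52.0, 52.7, 48.3 and 60.0 CPM in the AAV-NC livers and between 48.2 and 53.4 CPM in the AAV-TuD livers (median 51.3 CPM), with a log2 fold change of -0.10 ± 0.07 (SE). *Dlst* was at 44.4, 47.5, 40.7, 43.7 and 41.5 CPM and between 45.8 and 53.0 CPM (median 49.2 CPM), with a log2 fold change of 0.18 ± 0.07 (SE). For *Dlst*, 5 of the 6 AAV-TuD livers lay above the highest AAV-NC liver, and the log2 fold changes of the 2 components had opposite signs.

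Of the enzymes behind the ligase, *Fh1* (ENSMUSG00000026526, chr1:175600374-175625635), fumarase, was at 88.0, 83.1, 94.6, 111 and 142 CPM in the AAV-NC livers and between 75.1 and 102 CPM in the AAV-TuD livers (median 89.5 CPM). Its log2 fold change was -0.23 ± 0.12 (SE), and it was -0.08 without AAV-NC liver 8, the highest liver. *Mdh2* (ENSMUSG00000019179, chr5:135778480-135790398), the mitochondrial malate dehydrogenase, was at 115, 112, 111, 121 and 134 CPM and between 104 and 144 CPM (median 126 CPM), with a log2 fold change of 0.08 ± 0.08 (SE). The AAV-TuD livers spanned the whole AAV-NC range of *Mdh2* on both sides.

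In all, *Suclg2* was the 1 of the 9 genes past an adjusted p of 0.05, a level that 11.6% of all genes tested passed, and the 1 whose groups did not overlap, as did those of 7.39% of all genes. With the direction counted, 7.24% of all genes were called higher and 4.33% lower with AAV-TuD, and 4.11% were higher without overlap. All of these counts rest on the contrast by which the gene was chosen, and nothing is read from them. The log2 fold changes of the other 8 genes ran from -0.23 to 0.18 with a median of 0.03, 4 above and 4 below zero, beside a median of 0.00 over all genes tested. Those of *Suclg1*, *Sucla2*, *Ogdh* and *Fh1* were above zero (0.22, 0.10, 0.13 and 0.00) when counts were scaled by library size alone, which moved the median of all genes to 0.23.

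**Figure D3:**
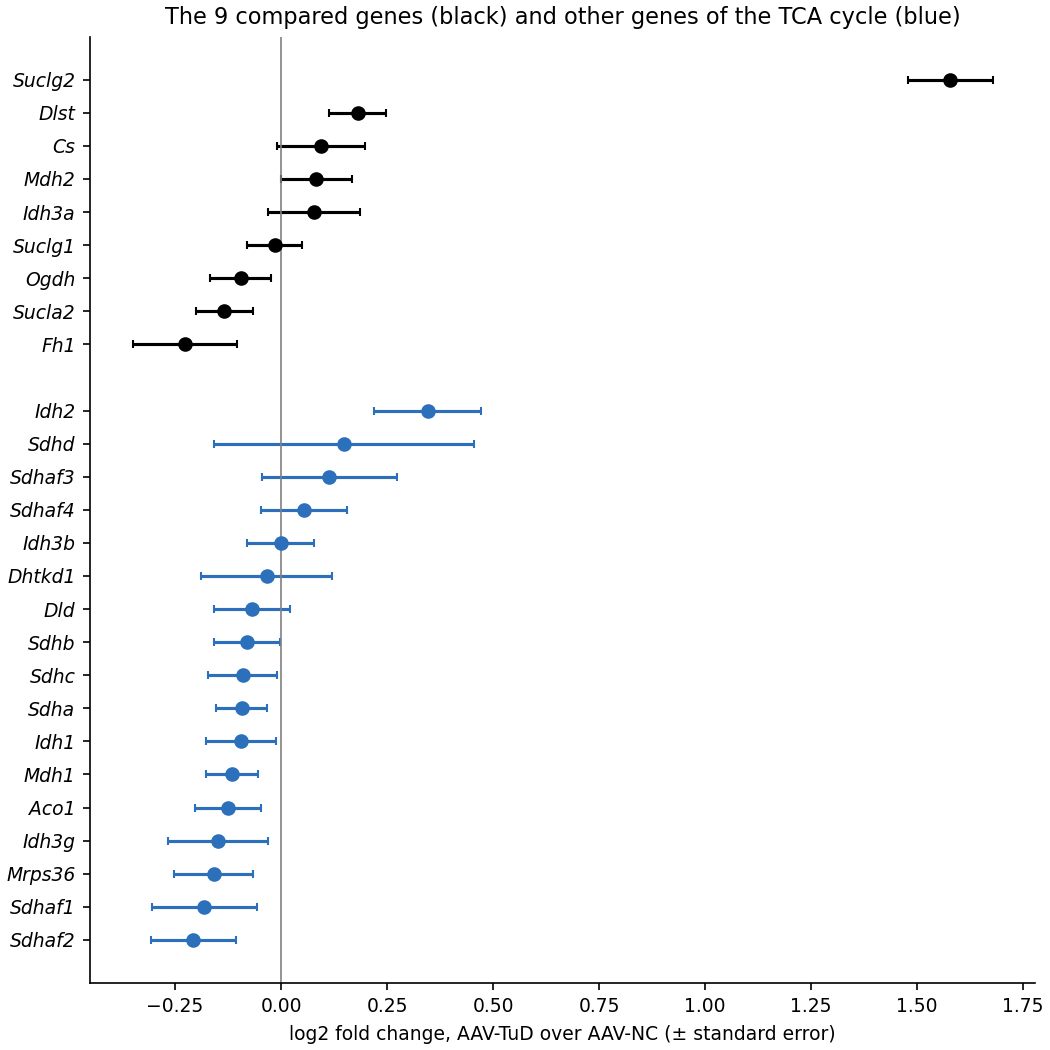
Log2 fold change of AAV-TuD over AAV-NC with its standard error (edgeR fit, 5 and 6 livers) for the 9 genes compared (black) and for 17 other genes of the TCA cycle (blue), among them assembly factors and cytosolic isoforms. *Suclg2* lies at 1.58, the other 8 genes between -0.23 and 0.18, and the 17 other genes between -0.21 and 0.35.

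By level in CPM, the order with AAV-NC was *Suclg1*, *Mdh2*, *Fh1*, *Sucla2*, *Ogdh*, *Cs*, *Dlst*, *Suclg2* and *Idh3a*. Neighbours in this order overlapped between livers except at the steps from *Fh1* to *Sucla2* and from *Suclg2* to *Idh3a*. With AAV-TuD the order was *Suclg1*, *Suclg2*, *Mdh2*, *Fh1*, *Sucla2*, *Ogdh*, *Dlst*, *Cs* and *Idh3a*. There the steps without overlap were those from *Mdh2* to *Fh1*, from *Fh1* to *Sucla2* and from *Cs* to *Idh3a*. *Suclg2* stood in place 8 with AAV-NC, overlapping with *Dlst* and *Cs*, and in place 2 with AAV-TuD, overlapping with *Suclg1* and *Mdh2*.

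*Gm15163* (ENSMUSG00000085711, chrX:157016229-157017530, minus strand) is annotated as a processed pseudogene, an intronless copy, and over its 1302 bases it was 98.9% identical to the *Suclg2* transcript, with 14 mismatches and no gap. It was singled out after its values were seen. The copy ends where the 3′ UTR of *Suclg2* begins, and it holds no match to the miR-379-5p seed. It was counted with 81, 66, 65, 46 and 84 reads in the AAV-NC livers and with 210, 230, 222, 256, 295 and 260 reads in the AAV-TuD livers. The groups did not overlap, and the means were 7.82 ± 1.45 CPM (SD, n = 5) and 22.1 ± 2.11 CPM (SD, n = 6).

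The reads of *Gm15163* came to 18.1 ± 0.525% (SD, n = 5) of those of *Suclg2* in the controls and to 17.2 ± 1.86% (SD, n = 6) with AAV-TuD. How reads that match several places were counted is not given in the sources used here, so the reads of the gene and the copy cannot be told apart from the counts. The 2 long coding transcripts of *Suclg2* go on for 2040 and 907 bases of 3′ UTR beyond the stretch that the copy matches. Both together were at 51.0 ± 8.98 CPM (SD, n = 5) and 151 ± 5.20 CPM (SD, n = 6), a ratio of 2.96 beside the 2.99 of *Suclg2* alone. Among the last 500 bases of the coding transcripts of the 9 genes, the one match to another gene at 95% identity over 100 bases or more was that of *Gm15163* to a short *Suclg2* transcript of 385 bases (310 bases, 99.0% identical).

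**Figure D4:**
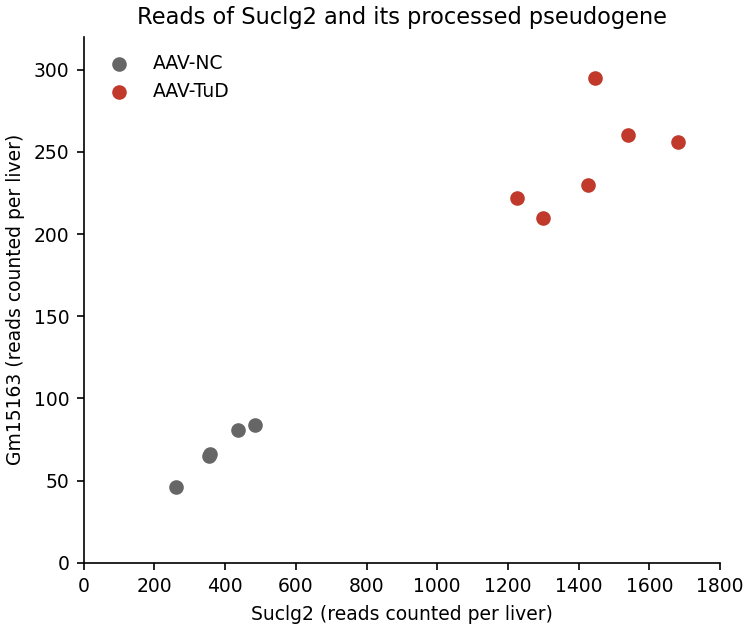
Reads counted per liver for *Gm15163* (vertical) against *Suclg2* (horizontal), both on linear axes from 0, for AAV-NC (grey) and AAV-TuD (red) livers. AAV-NC livers lie at 260 to 484 reads of *Suclg2* and 46 to 84 of *Gm15163*, and AAV-TuD livers at 1225 to 1681 and 210 to 295.

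*Suclg2* has 2 long coding transcripts in the annotation, of 3367 and 2518 bases, whose 3′ ends lie at positions 95473009 and 95474142 of chromosome 6. The miR-379-5p match lies in the 3′ UTR of both. The miR-134-5p match, at base 1136, lies only in that of the longer, since the 3′ UTR of the shorter has 907 bases. Counts per gene do not separate these transcripts. The nearest genes tested on the chromosome, 4 on each side, were looked up by position after the result was known. Of these 8, 1 passed the test, beside 11.6% of all genes: *Adamts9*, a secreted metalloprotease at 2530 kb (0.901 ± 0.366 and 1.91 ± 0.566 CPM, adjusted p = 0.0328, edgeR). The nearest, *Magi1*, a scaffold protein of cell junctions at a distance of 1189 kb, was at 16.5 and 14.8 CPM.

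Within the AAV-TuD livers, which carry no contrast between the groups, the log2 CPM of *Suclg2* was correlated with that of each of the other 8 genes. Over the 6 livers, 0 of 8 correlations passed an adjusted p of 0.05 in an exact two-sided permutation test over the 720 orders, and 1 had an unadjusted p under 0.05. This was *Dlst* (Pearson's r = 0.85, exact p = 0.0333, adjusted p = 0.267, Spearman's rho = 0.83, exact p = 0.0583, adjusted p = 0.411). Its r fell to 0.17 without the livers 9 and 3, the 2 farthest from the median in *Suclg2*. Leaving these out narrows the range of *Suclg2*, so the lower r cannot show on which livers the relation rests. With each liver left out singly, r for *Dlst* was 0.70 to 0.95. *Suclg1* was next (r = 0.70, exact p = 0.118, adjusted p = 0.472, rho = 0.77, exact p = 0.103, adjusted p = 0.411), with r = 0.14 without these livers. Without them r was 0.92 in place of 0.59 for *Fh1*, 0.80 in place of 0.23 for *Idh3a* and -0.92 in place of 0.24 for *Mdh2*. For *Sucla2* r was -0.39, for *Ogdh* 0.14 and for *Cs* 0.04 over the 6 livers. So few livers, this close in *Suclg2*, leave such relations poorly measured.

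Over all 11 livers, with each group's mean taken out, the same correlation with *Suclg2* was 0.83 for *Suclg1*, 0.79 for *Ogdh* and 0.59 for *Sucla2*, and between -0.22 and 0.27 for the other 5 genes. The sign for *Sucla2* was thus opposite to that within the AAV-TuD livers, and *Ogdh* was near zero there. These are descriptions over livers that share libraries and scaling. The coefficient of variation of *Suclg2* was 17.4% among the AAV-NC livers and 3.90% among the AAV-TuD livers. The AAV-NC livers therefore weigh most in these values and in the ranking that follows. Among 8371 genes averaging 50 or more reads, the 5 most like *Suclg2* by this measure were *Rpl19*, a ribosomal protein (0.96), *Mipep*, a peptidase of the mitochondrial matrix (0.93), *Cisd1*, an iron-sulfur protein of the outer mitochondrial membrane (0.92), *Hdac1*, a histone deacetylase (0.88), and *Gamt*, the methyltransferase of creatine synthesis (0.88). *Suclg1* took place 19 and *Gm15163* place 20.

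The wider pathway was described with 7 lists of genes around the cycle. Of 117 genes tested, 9 passed an adjusted p of 0.05 (7.69%, beside 11.6% of all genes), 6 higher and 3 lower with AAV-TuD, and the median log2 fold change was -0.06. One of the lists held 17 tested genes of the TCA cycle in a wide sense, that is subunits of its enzymes, cytosolic isoforms (such as *Idh1* and *Mdh1*), assembly factors of succinate dehydrogenase (*Sdhaf1* to *Sdhaf4*) and *Dhtkd1* of lysine breakdown. None of the 17 passed with edgeR or with DESeq2, and 1 had an unadjusted p under 0.05 with edgeR. Their median log2 fold change was -0.09. The highest of them, named for that reason, was *Idh2*, the NADP-dependent isocitrate dehydrogenase of mitochondria (55.6 and 70.6 CPM, log2 fold change 0.35 ± 0.13, adjusted p = 0.0907), which passed the threshold without AAV-TuD liver 3 and without the 3 livers with most *Mup* reads. None of 15 genes of lipoate and iron-sulfur cluster assembly, which equip these enzymes with cofactors, passed with edgeR or DESeq2, and 4 had an unadjusted p under 0.05, while without AAV-TuD liver 3 the lipoate synthase gene *Lias* passed.

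Among 22 genes of pyruvate entry and anaplerosis, 1 was higher and 1 lower, which is 9.09% beside 11.6% of all genes tested. *Me1*, the cytosolic malic enzyme that makes NADPH for lipid synthesis, fell from 251 ± 87.6 CPM (SD, n = 5) to 126 ± 29.0 CPM (SD, n = 6), a log2 fold change of -0.997 ± 0.20 (SE) with an adjusted p of 0.00622 (edgeR). Its AAV-NC livers ran from 134 to 339 CPM and overlapped with the AAV-TuD livers, at 101 to 179 CPM. *Pdk4*, a kinase that switches off pyruvate dehydrogenase, rose from 0.902 to 1.73 CPM (adjusted p = 0.0443).

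Of 22 other genes that make or use succinyl-CoA, 2 were higher, which is 9.09% beside 7.24% of all genes called higher. *Oxct1*, which takes the CoA of succinyl-CoA for the use of ketone bodies and is known to be low in hepatocytes, rose from 5.56 ± 1.87 to 10.3 ± 2.71 CPM (log2 fold change 0.87 ± 0.22, adjusted p = 0.0182, edgeR). *Dbt*, the E2 component of the branched-chain ketoacid dehydrogenase, rose from 65.1 ± 4.85 to 75.6 ± 2.86 CPM without overlap (log2 fold change 0.22 ± 0.07, adjusted p = 0.0493). The call of *Dbt* was lost in 16 of 20 alternative settings (adjusted p up to 0.140), among them those that left out any 1 liver but AAV-TuD 3. *Ppm1k*, the phosphatase that activates the branched-chain ketoacid dehydrogenase (48.7 ± 10.1 and 69.7 ± 16.9 CPM, log2 fold change 0.52 ± 0.16, adjusted p = 0.0506), passed in 7 of the 20 settings, DESeq2 among them.

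Of 13 mitochondrial carriers, 2 were higher (15.4%, beside 7.24% of all genes called higher), a share that rests on few genes and was not tested. They were *Ucp2*, an uncoupling protein also known from macrophages (4.97 ± 1.86 and 10.9 ± 2.60 CPM, log2 fold change 1.14 ± 0.23, adjusted p = 0.00537), and *Slc25a4*, an ADP/ATP carrier known as the form of muscle and heart (3.10 ± 0.874 and 6.05 ± 1.505 CPM, log2 fold change 0.96 ± 0.21, adjusted p = 0.00884). Of the nucleoside diphosphate kinases, which pass phosphate between GTP and ATP, 2 of 6 were in the tested set, and *Nme6* was lower (5.55 ± 1.28 and 3.58 ± 0.560 CPM, log2 fold change -0.63 ± 0.18, adjusted p = 0.0310). Of all genes tested, 4.33% were called lower, and 2 kinases are too few for a share.

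Of 26 genes linked to mitochondrial mass and biogenesis, 1 was higher and 1 lower, which is 7.69% beside 11.6% of all genes tested. Their transcript levels are not a measure of mass. The study judged mass by staining of mitochondria in hepatocytes and liver sections and reported it as raised with the TuD. Apart from staining, its liver proteomics listed SUCLG2 among the mitochondrial proteins most raised with the TuD. It also reported more *Ucp2* mRNA in those livers by quantitative PCR. Protein abundance and read counts are unlike measures and were not compared here. *Vdac1*, the main channel of the outer membrane, rose from 99.7 ± 5.45 CPM (SD, n = 5) to 144 ± 8.65 CPM (SD, n = 6) without overlap (log2 fold change 0.53 ± 0.07, adjusted p = 2.52e-04, edgeR). *Hspe1*, a chaperonin of the matrix, fell from 174 ± 11.8 to 142 ± 14.6 CPM (log2 fold change -0.29 ± 0.08, adjusted p = 0.0261). The median of the list was -0.08. *Me1*, *Oxct1*, *Ucp2*, *Slc25a4* and *Vdac1* passed the threshold in all 20 alternative settings, with the highest adjusted p at 0.0466 for *Oxct1* without AAV-TuD liver 4. *Pdk4* was lost in 10 of them (adjusted p up to 0.113), among these without any 1 of AAV-NC 1, 6, 7 and 8 and AAV-TuD 4, 5, 9, 10 and 11. *Nme6* was lost in 8 (adjusted p up to 0.289), among these without AAV-NC 1, 6 or 7 or AAV-TuD 4, 9 or 10, and *Hspe1* in 6 (adjusted p up to 0.838, with library size alone), among these without AAV-NC 7 or 8 or AAV-TuD 4, 10 or 11.

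**Figure D5:**
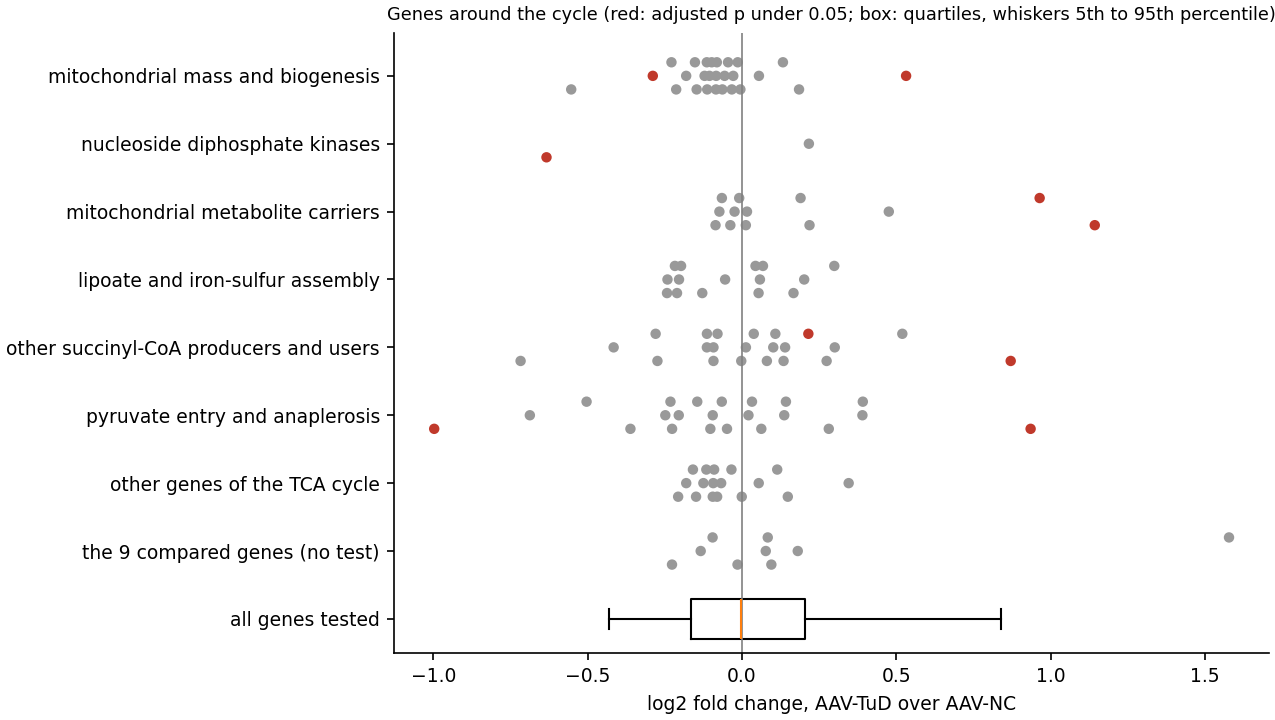
Log2 fold change of AAV-TuD over AAV-NC for each gene of the 7 lists and for the 9 genes compared (points), with a box for all 13334 genes tested (quartiles and median, whiskers at percentiles 5 and 95). Red points mark the 9 list genes with an adjusted p under 0.05 (edgeR), from -0.997 for *Me1* to 1.14 for *Ucp2*, and no test is drawn for the row of compared genes, where *Suclg2* stands at 1.58.

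Total reads per liver were 8148531 to 12043959, and the *Mup* genes took 28.4 to 38.6% of them in 3 livers (AAV-NC 7, AAV-TuD 3 and AAV-TuD 5) and 8.09 to 18.7% in the others. The hepatocyte markers, led by *Alb* and *Apoa1*, summed to 41248 to 47743 CPM with AAV-NC and to 47501 to 54119 CPM with AAV-TuD. *Alb* (21096 and 28044 CPM, log2 fold change 0.41) carried the higher sum, while the median log2 fold change of the 10 markers was -0.19, *Apoa1* was at -0.20, and the 1 marker that passed, *Hnf4a*, was lower. Over all genes tested, 7.24% were called higher with AAV-TuD and 4.33% lower. Stellate cell markers, such as *Dcn* and *Rgs5*, summed to 213 to 274 and 373 to 509 CPM. Of these, 9 of 12 were called higher, *Dcn* among them but not *Rgs5* (adjusted p = 0.0534, edgeR). Macrophage markers, such as *Csf1r* and *C1qb*, summed to 138 to 214 and 163 to 469 CPM, with 9 of 12 called higher. Cholangiocyte markers, such as *Sox9* and *Spp1*, summed to 25.8 to 46.8 and 54.3 to 88.6 CPM, with 5 of 6 tested higher. Of the endothelial markers, such as *Ptprb* and *Kdr*, 0 of 12 passed with edgeR or DESeq2 (1 with an unadjusted p under 0.05), and their sums were 323 to 352 and 321 to 347 CPM. The lymphocyte markers, 10 in all, were not in the tested set. The part of these cell types in the differences of the 9 genes and of *Oxct1*, *Ucp2* and *Slc25a4* was not tested, and in whole liver more cells of a type and more RNA per cell cannot be told apart.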

How the data were processed

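Liver RNA was made into QuantSeq 3′ libraries by the authors, who used BBDuk for trimming, STAR 2.5.3a for alignment to GRCm38 and Rsubread for counting. The deposited values are raw counts per gene. The annotation, the strand setting and the handling of reads with several matches are not given in the sources used here. A gene entered the test when 5 or more livers had over 10 reads. The test was the quasi-likelihood F test (R 4.3.3, edgeR 4.0.16, TMM factors, Benjamini-Hochberg adjustment over 13334 genes), fitted over all 5 AAV-NC and 6 AAV-TuD livers and without covariates. CPM values use TMM-scaled library sizes, log2 CPM a prior count of 2, and a standard error is the log2 fold change divided by the square root of its F statistic. The p values of this test set the difference between the groups against the spread between these livers, estimated with information shared over genes.

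The genes compared and all lists were chosen with earlier results of these data known. Named list genes are the up to 4 with the smallest p among those past the threshold, and the 2 most abundant of each marker list. *Idh2*, *Lias*, *Ppm1k*, *Hnf4a*, *Gm15163* and the neighbours of *Suclg2* were named after their values were seen. *Ucp2* and *Phb1* had been listed under other symbols. Of the gene identifiers, 13658 of 13669 matched GENCODE M21 (GRCm38), the source of positions, transcripts and 3′ UTRs. *Kmo* overlaps *Fh1* on the opposite strand and does not cover its 3′ end. Some genes are not reported here. Replicate livers differed by more than counting error in all 25 pairs (chi-square per degree of freedom 7.11 to 164). Alternatives were DESeq2 1.42.0, its size factors or upper-quartile factors in edgeR, library size alone, no filter, filterByExpr, limma-voom (limma 3.58.1) with quality weights, removal of the *Mup* genes, and leaving out each liver. A fit without the 3 livers with most *Mup* reads was added after the data had been seen.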

Additional observations from a re-analysis of the deposited data

Results flagged for a closer look

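Among 42 sets of values of 1 group of livers, 4 held a liver whose gap to its neighbour was a large part of the group's range by Dixon's criterion, where chance would give about 2.1 (1 in 20). *Cs* was low in AAV-NC liver 8 (34.2 CPM, the next liver 45.3 CPM, gap over range 0.745). The share of *Mup* reads was high in AAV-NC liver 7 (38.6%, the next 18.7%, gap over range 0.804). *Pdk4* was high in AAV-TuD liver 4 (2.19 CPM, the next 1.71 CPM, gap over range 0.751), and *Hspe1* in AAV-TuD liver 5 (170 CPM, the next 144 CPM, gap over range 0.639).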

How the results depend on the processing

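The log2 fold change of *Suclg2* was 1.49 to 1.65 with each liver left out in turn and 1.51 to 1.59 under the other alternatives, except for library size alone, with 1.79. That scaling raised the median of all genes to 0.23, turned *Suclg1*, *Sucla2*, *Ogdh* and *Fh1* above zero, and left 71 in place of 577 lower calls. With each liver left out, 1012 to 1829 genes were called in place of 1543, 1012 of them without AAV-TuD liver 4, where 337 were lower, and 379 were lower without AAV-TuD liver 10. DESeq2 called 1811 genes, of which 1516 were shared with edgeR. Of the list genes, 6 to 13 were called with each liver left out and 8 to 12 under the other alternatives, beside 9. The correlation of *Suclg2* with *Suclg1* within AAV-TuD livers was 0.41 to 0.85 with each liver left out and 0.98 with library size alone, where all 8 correlations were 0.64 to 0.99 and 5 passed the threshold, the smallest adjusted p being 0.025 (exact permutation). No paired analysis was possible because the groups share no replicate number. Genes near 1 CPM, such as *Pdk4*, were counted with about 10 reads per liver, which limits their precision.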
